A study of Gallus gallus with 9 samples.

Results

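The enzymes of fatty acid synthesis were followed in the livers of 9 broilers, chickens bred for meat, of the ROSS308 line. The genes are ME1, FASN, ACACA, ACLY, SCD, ELOVL6, SREBF1, GPAM, DGAT2 and PPARG. They were taken by name, as all 21 probe sets that carry 1 of these 10 symbols alone in the platform annotation, out of 13009 symbols and 38439 probe sets in all. The Se-yeast group (5 birds) ate a standard diet with selenized yeast, which added 0.5 mg of selenium per kg, freely for 35 days from hatching. The Control group (4 birds) ate the same standard diet without that addition, and 1 more Control sample had been left out by the authors for poor quality. All birds were 35 days old, each gave 1 liver and 1 array, and the labels name no sex, batch or pen and give no selenium content of the standard diet. The labels call the birds biological replicates. The values are array signals on a linear scale that the authors had scaled to a common mean per array, so each change is relative to the rest of the array. Birds are called by group and replicate number, which has no order.

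In birds the liver makes most of the body's fatty acids. Citrate leaves the mitochondrion and is split to acetyl-CoA in the cytosol, acetyl-CoA is carboxylated to malonyl-CoA, and fatty acid synthase builds palmitate from both with NADPH as reductant. Palmitate is then elongated, desaturated and joined to glycerol to form triglyceride, which the liver stores or exports. The genes of these steps are known to be raised by feeding, insulin and thyroid hormone and lowered by fasting.

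The arrays were alike in general measures. Their median signals lay between 100.8 and 125.1 in Se-yeast birds and between 101.5 and 117.1 in Control birds, and GAPDH control signals at the 3′ end over those at the 5′ end, a measure of RNA quality, lay between 0.752 and 0.872 in Se-yeast and between 0.776 and 0.843 in Control birds. HINTW, a gene of the female W chromosome, stood at 14.01 on the log2 scale in Se-yeast bird 1 and between 4.47 and 5.15 in the other 8 birds. In bulk tissue fewer cells of a type and less RNA per cell cannot be told apart. Liver identity was checked with hepatocyte markers: albumin (ALB) had signals from 61831 to 100285 in Se-yeast birds and from 52096 to 65208 in Control birds.

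The supply of building blocks begins with ACLY, ATP citrate lyase, which makes cytosolic acetyl-CoA. The brightest probe set of the gene (NCBI Gene ID 395373) had signals of 20203, 19847, 20654, 6210 and 9548 in Se-yeast birds 1 to 5, against 13387, 17384, 17783 and 17362 in Control birds 1 to 4. Se-yeast birds 4 and 5 lay below every Control bird, and Se-yeast birds 1, 2 and 3 lay above every Control bird. The means were 15292 ± 6876 (SD, n = 5) in Se-yeast and 16479 ± 2070 (SD, n = 4) in Control birds. ME1, the cytosolic malic enzyme that supplies NADPH, had signals of 22666, 21533, 17000, 5444 and 6519 in Se-yeast birds, against 17522, 15554, 23206 and 26669 in Control birds. Again birds 4 and 5 of the Se-yeast group lay below every Control bird, and the other 3 lay within the Control range. The gene (NCBI Gene ID 374189) has 1 probe set, with means of 14632 ± 8186 (SD, n = 5) in Se-yeast and 20738 ± 5115 (SD, n = 4) in Control birds.

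ACACA, acetyl-CoA carboxylase alpha, makes malonyl-CoA and is the rate-limiting enzyme of the pathway. Its brightest probe set (NCBI Gene ID 396504) had signals of 7468, 13165, 10180, 5299 and 1051 in Se-yeast birds, against 12222, 7460, 13939 and 11741 in Control birds. Se-yeast bird 5 stood alone at the low end, 13.3 times under the highest bird, and Se-yeast bird 4 was the only other bird below the Control range. FASN, the synthase that builds palmitate, had signals of 65726, 42360, 44245, 11908 and 14258 in Se-yeast birds, against 44355, 35026, 45582 and 46087 in Control birds, on its brightest probe set (NCBI Gene ID 396061). A gap parted Se-yeast birds 4 and 5 from all other birds, and the Control birds differed among themselves by no more than 1.32 times. On the log2 scale FASN averaged 14.83 ± 1.09 (SD, n = 5) in Se-yeast and 15.38 ± 0.187 (SD, n = 4) in Control birds.

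**Figure D1:**
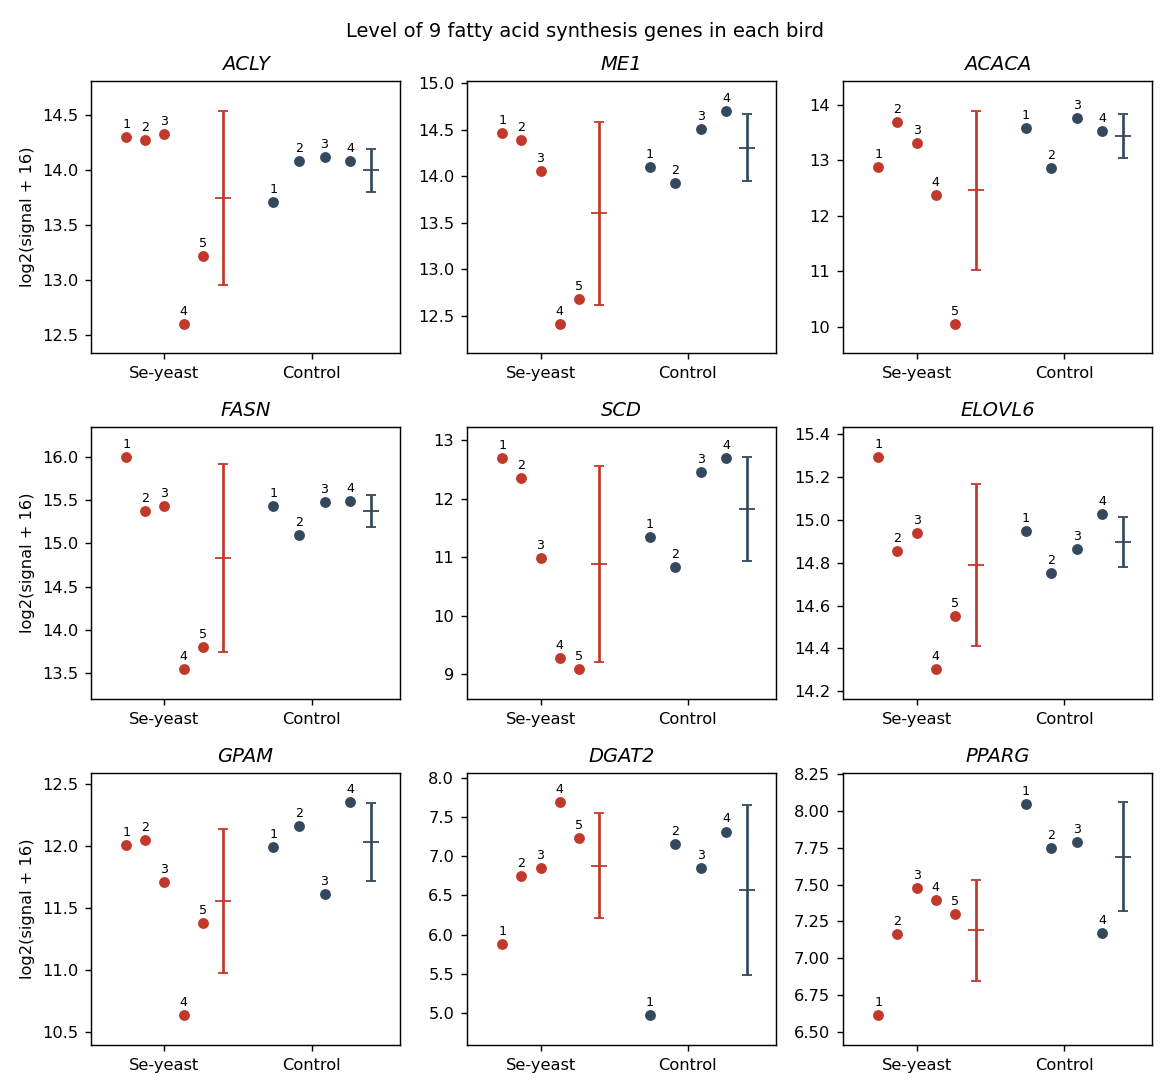
Each panel plots 1 gene as log2(signal + 16) on the vertical axis, for its brightest probe set, with 1 numbered point per bird, Se-yeast (red) left of Control (dark), and the mean with its SD beside each group; the vertical scales differ between panels and do not start at 0. In ACLY, ME1, ACACA, FASN, SCD, ELOVL6 and GPAM the lowest points are Se-yeast birds 4 and 5, while DGAT2 and PPARG do not show this order.

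Products of the synthase are altered by ELOVL6, which lengthens palmitate to stearate, and by SCD, the desaturase that turns stearate into oleate. SCD (NCBI Gene ID 395706) had signals of 6658, 5204, 2012, 605 and 526 in Se-yeast birds, against 2590, 1805, 5595 and 6629 in Control birds. It varied widely within both diets, by 12.7 times among Se-yeast birds and by 3.67 times among Control birds, and Se-yeast birds 4 and 5 were again below every Control bird. ELOVL6 (NCBI Gene ID 428772), on its brightest probe set, had signals of 40142, 29610, 31362, 20192 and 24027 in Se-yeast birds, against 31555, 27530, 29770 and 33326 in Control birds. Se-yeast birds 4 and 5 were again the lowest, over a range of 1.99 times from lowest to highest bird, where FASN spanned 5.52 times. On the other 2 probe sets of ELOVL6, Se-yeast bird 4 was the lowest and Se-yeast bird 2, not bird 5, came next.

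GPAM, the mitochondrial acyltransferase that puts the first fatty acid on the glycerol backbone, has 1 probe set (NCBI Gene ID 423895). Its signals were 4095, 4211, 3340, 1573 and 2649 in Se-yeast birds, against 4051, 4568, 3120 and 5208 in Control birds. Se-yeast birds 4 and 5 were the lowest here too, both below every Control bird. DGAT2 (NCBI Gene ID 421309) adds the last fatty acid to make triglyceride. Its 2 tested probe sets were dim, with signals of 42.9, 91.2, 99.9, 190.5 and 134.4 in Se-yeast birds and 15.4, 126.3, 99.7 and 143.6 in Control birds on the brighter one. Se-yeast bird 4 was highest there and Control bird 1 lowest. The other DGAT2 probe set ran from 47.4 to 100.2 in Se-yeast and from 81.1 to 98.4 in Control birds, and the deviations of both probe sets from their diet means correlated at -0.48 over the 9 birds, so the array gave no settled pattern for this gene.

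The regulators among the genes were dim. PPARG, the nuclear receptor that drives fat storage in adipocytes, had signals of 81.8, 127.3, 161.8, 152.6 and 141.6 in Se-yeast birds, against 248.7, 198.6, 205.3 and 128.2 in Control birds, on the brightest of 3 probe sets (NCBI Gene ID 373928). The Se-yeast birds lay under Control birds 1 to 3 and overlapped with Control bird 4, and on this probe set birds 1 and 2 were the lowest. Its other probe sets ran from 54.1 to 185.7 in Se-yeast and from 72.6 to 197.8 in Control birds, and the 3 probe sets correlated with each other at -0.08, 0.23 and 0.41. SREBF1 (NCBI Gene ID 373915), the transcription factor that turns on most enzymes above, had 3 probe sets, and none reached the level of 6.33 on the log2 scale (a signal of 64.7) required for testing. Its signals ran from 5.43 to 97.9 in Se-yeast and from 6.07 to 126.9 in Control birds, and without the arrays' present or absent calls they cannot be told from background.

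The diets were then compared across all 23063 tested probe sets, to ask which liver transcripts differ with the selenium supplement. Fatty acid synthesis genes were on average lower in Se-yeast livers, but no gene passed the test and the groups overlapped in each of them. Of 10 genes 9 could be tested, and 8 of these 9 had a fold change below 0, with a median of -0.50 on the log2 scale, while the median over all tested probe sets was 0.02 and 46.9% of them lay below 0. The log2 fold changes, Se-yeast minus Control, were -0.97 for ACACA (95% interval -2.19 to 0.25), -0.95 for SCD (-2.48 to 0.58) and -0.71 for ME1 (-1.57 to 0.16). They were -0.55 for FASN (-1.47 to 0.38), -0.50 for PPARG (-1.04 to 0.04) and -0.47 for GPAM (-1.04 to 0.09). Smaller values stood at -0.25 for ACLY (-0.94 to 0.44), -0.11 for ELOVL6 (-0.48 to 0.27) and, on the other side, 0.31 for DGAT2 (-0.75 to 1.36). By limma with Benjamini-Hochberg adjustment over all tested probe sets, the adjusted p was 0.999 for each of these 9, and the unadjusted p ran from 0.0657 (PPARG) to 0.544 (ELOVL6). Over the whole array 0.0260% of probe sets passed at an adjusted p under 0.05, 0.0173% as higher and 0.00867% as lower in Se-yeast. An unadjusted p under 0.05 was found in 4.67%, of which the lower ones made up 1.98% of all tested. The groups did not overlap in 1.64%, with all Se-yeast birds below all Control birds in 0.750% and above them in 0.889%. The ELOVL6 value comes from an _s_at probe set, which can also read related transcripts. Its other probe sets stood at -0.35, with an unadjusted limma p of 0.0414, and at -0.48, and the mean of all 3 at -0.31. All 18 tested probe sets of the 9 genes but 1 of DGAT2 had a negative fold change.

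**Figure D2:**
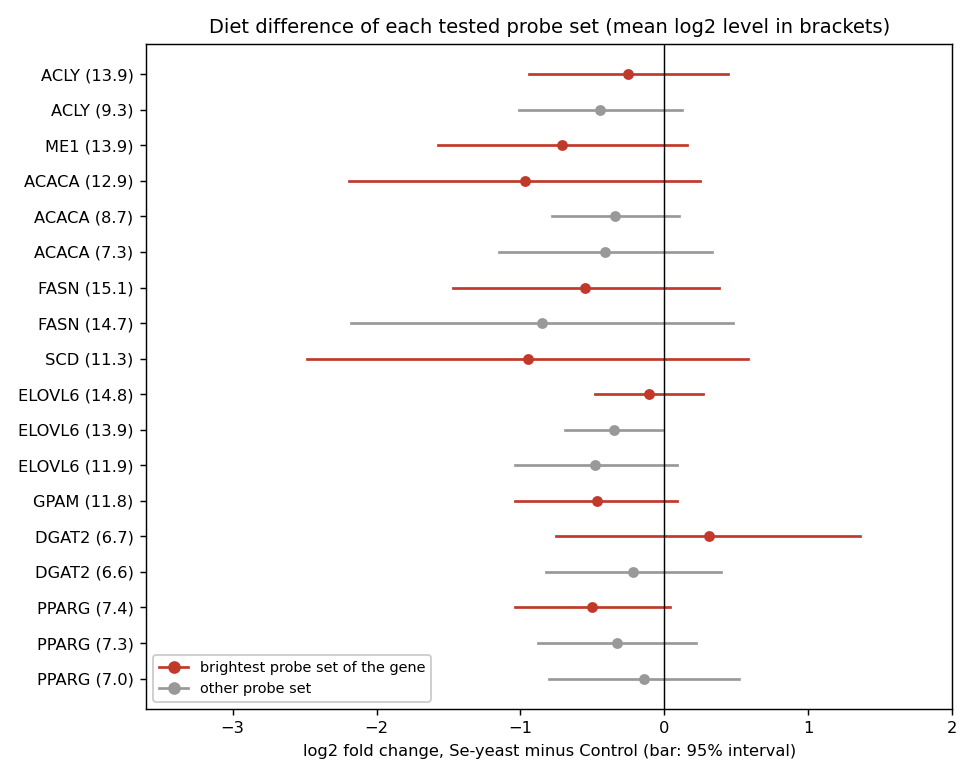
The horizontal axis gives the log2 fold change (Se-yeast minus Control) and each row is 1 of the 18 tested probe sets, named by gene with its mean log2 level in brackets; points are estimates, bars are 95% intervals from limma, and red marks the brightest probe set of a gene. Points lie left of 0 for all probe sets except the brighter one of DGAT2, and the intervals of all but 1 probe set, of ELOVL6, include 0.

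How much of this difference 2 birds carried was checked by leaving them out, an alternative chosen after their values were seen. Without Se-yeast birds 4 and 5 the median fold change of the 9 genes was 0.00. FASN then stood at 0.23, ACLY at 0.31, SCD at 0.18, ELOVL6 at 0.13 and ME1 at 0.00, while ACACA (-0.14), GPAM (-0.11) and PPARG (-0.61) stayed on the lower side. ACLY, higher in Se-yeast in this setting on its brightest probe set, had an unadjusted limma p of 0.0395 and an adjusted p of 0.668. All these values are from the brightest probe sets, and the changes of sign hold for those alone. On the dimmer ACLY probe set Se-yeast birds 2 and 3 (534 and 524) also lay below every Control bird (549 and above). The same held on the next brightest ELOVL6 probe set (12591 and 13083, against 14979 and above). Leaving out bird 4 alone brought the median to -0.24 and the values of ACLY and ELOVL6 to 0.03 and 0.01, and leaving out bird 5 alone brought the median to -0.37. Bird 5 alone carried much of the ACACA value, which was -0.37 without it, and SCD stood at -0.50 without bird 5 and -0.55 without bird 4. FASN stood at -0.22 without bird 4 and -0.29 without bird 5, ME1 at -0.41 and -0.47, and GPAM at -0.24 and -0.43. PPARG did not shrink in these settings, at -0.55 without bird 4 and -0.53 without bird 5. With the W-chromosome level as a covariate, which is high in Se-yeast bird 1 alone, PPARG stood at -0.29, while FASN stood at -0.91, SCD at -1.58, ME1 at -0.99, ELOVL6 at -0.26, ACLY at -0.42 and DGAT2 at 0.56. In that fit ME1, SCD, GPAM and FASN had unadjusted limma p values of 0.0311, 0.0349, 0.0447 and 0.0451, and the adjusted p was 0.996 for each. As the covariate is high in 1 bird, this fit comes close to leaving out Se-yeast bird 1. Without that bird these genes stood at -0.92, -1.41, -0.59 and -0.84. Their unadjusted limma p values were then 0.0357, 0.0519, 0.0495 and 0.0472, and none passed after adjustment.

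Spread between birds was wider among the Se-yeast birds than among the Control birds for most of the enzymes. The SD on the log2 scale was 0.982 in Se-yeast and 0.358 in Control birds for ME1, 1.43 and 0.392 for ACACA, 0.793 and 0.194 for ACLY, 1.68 and 0.890 for SCD, and 0.580 and 0.313 for GPAM. For FASN the Se-yeast SD was 5.82 times the Control SD, and 1.70% of tested probe sets had a larger ratio. These values are from the brightest probe sets. On the other probe sets of these enzymes the ratio was 0.911 for ACLY, 1.52 and 5.64 for ACACA and 7.02 for FASN. For ELOVL6 it was 3.21 on the brightest probe set and 1.73 and 1.69 on the others. The median ratio over the 9 genes was 2.74, with DGAT2 lowest at 0.617, and the median over all tested probe sets was 1.23. Measured within the diets on the brightest probe sets, 5 of the 9 genes (SCD, ACACA, DGAT2, FASN and ME1) had an SD above the 90th percentile of all tested probe sets, which was 0.668. On other probe sets of these genes the SD was 1.22 for FASN, 0.588 and 0.304 for ACACA and 0.299 for DGAT2. Both DGAT2 probe sets were dim. SCD had an SD of 1.40 on this measure and only 0.217% of probe sets had a larger one. In ACLY Se-yeast birds 1 to 3 lay close together on the log2 scale (14.30, 14.28 and 14.34), with birds 4 and 5 at 12.60 and 13.22. In SCD birds 1 to 3 were spread as well (12.70, 12.35 and 10.99), with birds 4 and 5 at 9.28 and 9.08. No SD was computed without birds 4 and 5, and the difference in spread between the diets was not tested.

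On the brightest probe sets Se-yeast birds 4 and 5 were the 2 lowest birds in 7 of the 9 genes, as in 4.96% of all tested probe sets. In the same 7 genes both lay below every Control bird there, as in 8.28% of all. On the dimmest ELOVL6 probe set, however, bird 5 (3450) lay just above Control bird 2 (3447). The arrays of Se-yeast birds 4 and 5 had median signals of 125.1 and 102.4, GAPDH ratios of 0.801 and 0.773 and mean correlations with the other arrays of 0.945 and 0.946. All were within the range of the other 7 arrays except for the first median, which was the highest. Summed over 10 hepatocyte markers, their signals were 490814 and 469677, against 383377 to 458048 in Control birds. Both sums lay above that of every Control bird, as did the sums of all Se-yeast birds, which ran from 462922 to 711411. The margin was narrow, with 462922 in the lowest Se-yeast bird against 458048 in the highest Control bird. In each of these hepatocyte markers taken alone the diets overlapped. Across all tested probe sets, the deviations of these 2 birds from the Se-yeast mean correlated at 0.00, while the other 9 pairs of Se-yeast birds ran from -0.41 to -0.14, so the 2 livers were somewhat more alike than other pairs on the whole array.

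The genes were next compared with each other across birds, on log2 levels with each bird's diet mean subtracted, so that a mean difference between diets adds nothing. The enzymes varied together, and DGAT2 and PPARG, on their brightest probe sets, did not follow them. Over the 36 pairs of 9 genes the median Pearson correlation was 0.63, against 0.00 over pairs of all 10382 tested genes, and 16 pairs (44.4%) exceeded 0.7, as 3.69% of pairs did among all genes. Every one of these 16 was a pair among ACLY, ME1, ACACA, FASN, SCD, ELOVL6 and GPAM, whose 21 pairs ran from 0.33 (ACACA with GPAM) to 0.96. All 15 pairs with DGAT2 or PPARG, on their brightest but dim probe sets, were negative, from -0.64 (SCD with PPARG) to -0.06. The probe sets of these genes differed from each other, with correlations of -0.48 for DGAT2 and -0.08, 0.23 and 0.41 for PPARG. These signs therefore hold for the probe sets used, and pairs with the other probe sets were not computed. Pairs share the same 9 arrays, and their number limits the precision.

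Each pair was tested by exact permutation of the birds within diets, with 2880 arrangements, so that the smallest possible p was 0.000347. After adjustment over the 36 pairs, 5 passed at 0.05, and 15 had an unadjusted p under 0.05. FASN and ELOVL6 had r = 0.95 (exact permutation p = 0.00104, adjusted 0.0167) and rho = 0.97 (exact permutation p = 0.00174, adjusted 0.0416). Without the 2 birds farthest from the median of FASN, which were Se-yeast birds 4 and 5, r remained 0.95. ME1 and SCD had r = 0.96 (exact permutation p = 0.00139, adjusted 0.0167) and rho = 0.93 (exact permutation p = 0.00347, adjusted 0.0416), and r was 0.97 in the 7 birds left without Se-yeast birds 4 and 5. For ME1 and FASN r = 0.96 (exact permutation p = 0.00139, adjusted 0.0167) and rho = 0.98 (exact permutation p = 0.00243, adjusted 0.0416), with r = 0.60 in those 7 birds. The other pairs that passed by r were ME1 with ELOVL6 (r = 0.89, exact permutation p = 0.00521, adjusted 0.0400) and FASN with SCD (r = 0.90, exact permutation p = 0.00556, adjusted 0.0400). Their rho values were 0.93 (exact permutation p = 0.00764, adjusted 0.0688) and 0.88 (exact permutation p = 0.0181, adjusted 0.130), and without Se-yeast birds 4 and 5 their r was 0.52 and 0.66.

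Without Se-yeast birds 4 and 5 the correlations were lower in 19 of the 21 pairs among the 7 enzymes. The median of these 21 was 0.23 in the other 7 birds, where 13 were above 0, against 0.81 over 9 birds. Over all 36 pairs, those with DGAT2 and PPARG included, the median without both birds was 0.03. FASN and ACLY went with r = 0.92 over 9 birds and -0.10 over 7, FASN and GPAM with 0.78 and -0.01, ACLY and ELOVL6 with 0.83 and -0.14, and ACACA and GPAM with 0.33 and -0.34. The relations of FASN with ACLY and GPAM and of ACLY with ELOVL6 therefore rested on these 2 birds. Those of FASN with ELOVL6 and of ME1 with SCD were as close in the other 7. ACACA and GPAM had no clear relation over 9 birds (exact permutation p = 0.509). Among Control birds alone, SCD and ME1 gave the same order, with birds 2, 1, 3 and 4 from low to high. On its brightest probe set, which the other PPARG probe sets did not follow closely, PPARG was opposed to SCD (-0.74) and ME1 (-0.73) in the 7 birds. It was likewise opposed to ELOVL6 (-0.68), GPAM (-0.61), FASN (-0.60) and ACLY (-0.40) there, but not to ACACA (0.31). These values in 7 birds were not tested.

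**Figure D3:**
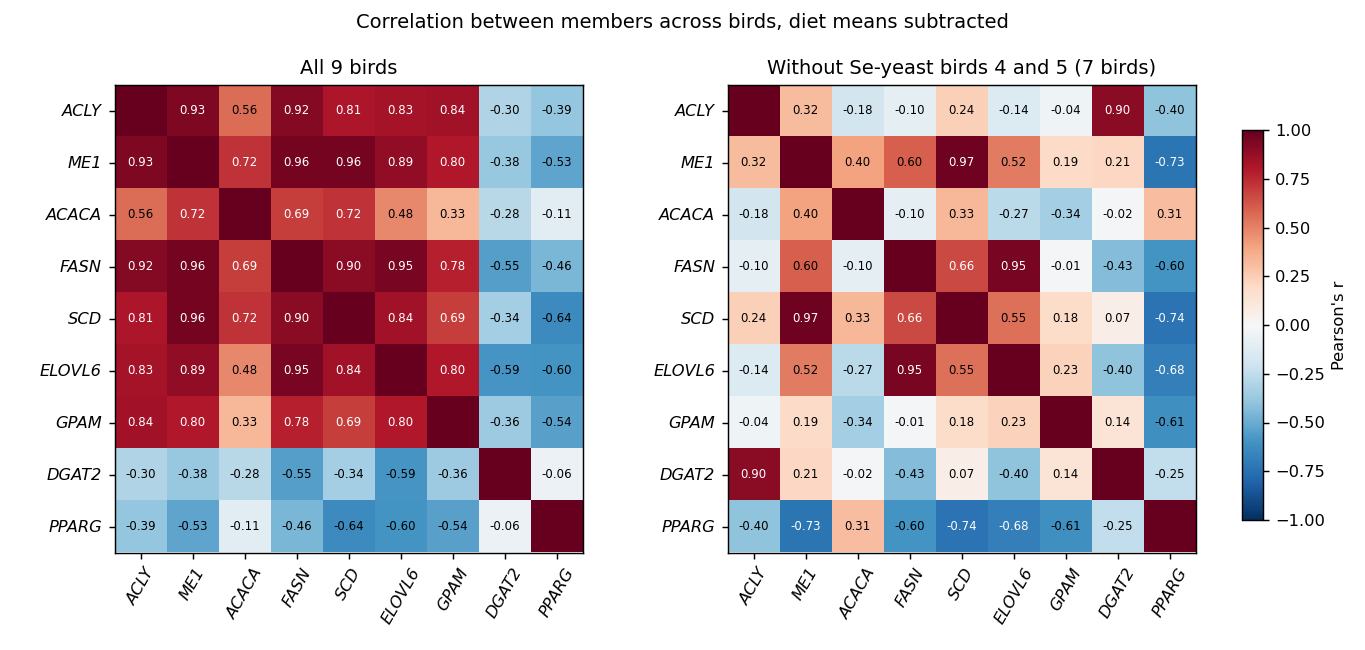
Colour and number give Pearson's r between 9 genes across birds after subtracting diet means, for all 9 birds (left) and for the 7 birds other than Se-yeast birds 4 and 5 (right). The block of high values among 7 enzymes on the left thins out on the right, where FASN with ELOVL6 (0.95) and ME1 with SCD (0.97) remain high, and the value of 0.90 between ACLY and the dim DGAT2 probe set appears.

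Probe sets of 1 gene read different parts of its transcripts, and their accord differed between genes. The second FASN probe set followed the first with r = 0.98, with signals of 54630, 49666, 36322, 6061 and 6409 in Se-yeast birds, against 33860, 31545, 43105 and 42350 in Control birds, a range of 9.01 times. The 3 ELOVL6 probe sets correlated at 0.82 to 0.90. For ACACA the brightest probe set and the dimmest correlated at 0.97, but the third (an _s_at probe set, which can also read related transcripts) at 0.59 and 0.68 with a range of only 2.03 times. The dimmer of the ACLY probe sets, with signals of 845, 534, 524, 351 and 488 in Se-yeast birds, against 746, 578, 549 and 1158 in Control birds, correlated at 0.53 with the brighter one, and Se-yeast birds 4 and 5 were the lowest on it as well. The low values of birds 4 and 5 in FASN, ACACA and ACLY thus appeared on every tested probe set of these genes. On the dimmer ACLY probe set, however, Se-yeast birds 2 and 3 also lay below every Control bird. In ELOVL6 bird 5 came next after bird 4 on the brightest probe set alone.

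Other genes of lipid synthesis and its surroundings came from a list of 117 symbols in 8 groups, of which 84 could be tested. None passed in either direction by limma over all probe sets (adjusted p at least 0.999). Of the 84, 6 had an unadjusted limma p under 0.05, as did 4.67% of all tested probe sets. The fold changes lay above 0 for 50 and below 0 for 34, with a median of 0.06 on the log2 scale. Of all tested probe sets 46.9% lay below 0. Se-yeast birds 4 and 5 were the 2 lowest birds in 14 of the 84 (16.7%, against 4.96% of all tested probe sets) and the 2 highest in 8 (9.52%, against 7.20%).

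Of the genes that supply citrate, acetyl-CoA and NADPH 6 of 9 lay above 0, and their median correlation with the mean standardised profile of the 9 genes was 0.34 over the 9 birds. In 3 of the 9, which were ACSS2, MDH1 and PDHB with correlations of 0.67, 0.83 and 0.85, Se-yeast birds 4 and 5 were the 2 lowest birds. In IDH1 and H6PD, with correlations of -0.70 and -0.37, they were the 2 highest. IDH1 had signals of 22922 and 29160 in these birds, against 14039 to 21687 in Control birds. SLC25A1, the mitochondrial citrate carrier, stood at 0.17, with signals from 25040 to 29975 in Se-yeast and from 22701 to 26927 in Control birds. PGD, which makes NADPH in the pentose phosphate pathway, stood at -0.22, TALDO1, a transaldolase of that pathway, at -0.10, and PDHB, a subunit of pyruvate dehydrogenase, at -0.15. In the carboxylase group, 4 of 6 lay above 0, with HLCS, which attaches biotin to carboxylases, at -0.20, MLYCD, which degrades malonyl-CoA, at -0.15, BTD, which recycles biotin, at 0.24 and MCAT at 0.13.

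Among genes of elongation, desaturation and fatty acid activation 8 of 12 lay below 0. The acyl-CoA synthetases ACSL3 and ACSL5 stood at -0.70 and -0.49, the elongation cycle dehydratase HACD3 at -0.11 and the desaturase FADS2 at -0.37. ACSL5 had signals of 21640, 19560, 15948, 10880 and 11003 in Se-yeast birds, against 23057, 21129, 17760 and 24264 in Control birds, so that birds 4 and 5 were low here too. The synthetase ACSL1 of the same group ran the other way, with birds 4 and 5 the highest and a correlation of -0.84 with the profile. In triglyceride assembly 6 of 11 lay below 0, with AGPAT2, the acyltransferase of the second step, at -0.39, AGPAT5 at -0.30, MOGAT2 at -0.67 and GPAT3 at 0.34. MOGAT2 was dim, with signals from 22.1 to 144.1 over all birds. The median correlation of that group with the profile was -0.43. MTTP, which loads triglyceride onto lipoproteins for export, stood at -0.40, and the apolipoprotein genes APOB, APOA4 and APOA1 at 0.16, 0.14 and 0.31.

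Lipogenic regulators lay above 0 for 11 of 18, with the insulin receptor INSR at 0.39, SCAP, the escort of SREBP proteins, at 0.40, and the transcription factor subunits NFYB and NFYC at 0.56 and 0.25. THRSP, a small protein that promotes lipogenesis and is induced by thyroid hormone, was chosen after its values were seen. It had signals of 87795, 70201, 58944, 37447 and 32470 in Se-yeast birds, against 56812, 44870, 55683 and 59470 in Control birds, with a log2 fold change of -0.01. Birds 4 and 5 were the lowest and birds 1 and 2 the highest, so that equal means hid a wide spread. SREBF2, the factor of cholesterol synthesis genes, also chosen after its values were seen, had 5239, 6032, 6307, 2293 and 1991 in Se-yeast birds, against 2510, 3880, 4451 and 2993 in Control birds. Its low birds were the same, although bird 4 was close to Control bird 1.

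In the group of lipid droplets and storage 8 of 13 lay above 0. PNPLA3, a lipase-like protein of lipid droplets that is induced with lipogenesis in mammals, had signals of 11937, 16614, 7877, 2909 and 3462 in Se-yeast birds, against 7288, 6261, 12730 and 11695 in Control birds. It correlated with the mean profile of the 9 genes, DGAT2 and PPARG included, at 0.94 over the 9 birds. PNPLA2, which starts the breakdown of stored triglyceride, ran the other way at -0.90, with 2306, 2026, 1900, 2797 and 3081 in Se-yeast birds, against 2021, 1896, 1973 and 1858 in Control birds. PLIN1 and CIDEC, which coat and enlarge droplets, stood at 0.54 and 0.36, and PLIN1 was dim, with signals from 26.8 to 222.5 over all birds.

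Genes of fatty acid oxidation and fasting lay above 0 for 10 of 12, with a median of 0.19. The 4 with the smallest p were HADHB, a subunit of the mitochondrial oxidation complex, at 0.31, the coactivator PPARGC1A at 0.67, and FBP1 and G6PC, both of glucose production, at 0.16 and 0.86. G6PC was dim, with signals from 20.7 to 250.9 over all birds. CPT1A, which admits fatty acids to the mitochondrion and is inhibited as an enzyme by malonyl-CoA, was chosen after its values were seen. Its signals were 321, 406, 219, 2231 and 4012 in Se-yeast birds, against 499, 455, 242 and 455 in Control birds. It was highest in the 2 birds with the lowest FASN, and its log2 fold change between diets was 0.93 (limma adjusted p = 0.999). ACSL1, an acyl-CoA synthetase of the elongation and activation group also chosen after its values were seen, was highest in birds 4 and 5, at 10312 and 12263, against 4367 to 7057 in Control birds. PDK4, which spares glucose in fasting and was chosen in the same way, did not follow. It had 3958, 4148, 1723, 5101 and 1490 in Se-yeast birds, against 2658, 2938, 3189 and 3473 in Control birds, so that bird 4 was the highest and bird 5 the lowest. PCK1, ANGPTL4 and PCK2, likewise chosen after their values were seen, did not follow either. PCK1 was lowest in bird 4 (76.3) and highest in bird 5 (1462). ANGPTL4 (48.9) and PCK2 (2771) were lowest in bird 4. Of the 12 genes, only CPT1A and HADHB had birds 4 and 5 as the 2 highest. The group's median correlation with the mean profile of the fatty acid synthesis genes was 0.05, from -0.93 (CPT1A) to 0.74 (PCK2).

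Over all 10373 tested genes outside the set, 7.91% correlated with the profile of the 9 genes above 0.7, 1.07% above 0.9 and 0.906% below -0.9, across 9 birds that share the same low pair. The 8 closest were CDCA7 (r = 0.99), ERG28, ECI1 and ACSBG2 (each 0.98), HKDC1 (0.97), and PTP4A3, ANKH and LSS (each 0.96). CDCA7 was dim, with signals of 26.4 and 36.4 in Se-yeast birds 4 and 5 and from 104.4 to 279.0 in the other birds. ACSBG2, an acyl-CoA synthetase, had signals of 6431, 7524, 6438, 677 and 642 in Se-yeast birds, against 4865, 6692, 5717 and 6181 in Control birds. Its probe set can also read related transcripts, as can that of HKDC1, a hexokinase-like gene with 4310, 7683, 4874, 779 and 562 in Se-yeast birds, against 3645, 5363, 7318 and 8195 in Control birds. In both genes the 2 low birds stood clear of all others by a wide gap.

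ERG28 and LSS belong to cholesterol synthesis, and ECI1 is an isomerase for the oxidation of unsaturated fatty acids. ERG28 had signals of 12245, 13211, 11027, 6371 and 7110 in Se-yeast birds, against 12584, 13400, 13145 and 14343 in Control birds. Without Se-yeast birds 4 and 5 the correlation with the profile was 0.93 for ECI1, 0.86 for HKDC1, 0.79 for CDCA7, 0.64 for LSS, 0.61 for ERG28, 0.41 for ANKH, 0.36 for ACSBG2 and 0.14 for PTP4A3. The 4 most opposed genes were SF3B1, a splicing factor, at -0.99, SEC16A, of vesicle export from the endoplasmic reticulum, at -0.98, and STXBP3 and INPP5B at -0.97 each. SF3B1 had signals of 4104, 4175, 4083, 7081 and 7012 in Se-yeast birds, against 5707, 5282, 4813 and 5059 in Control birds. With ME1 alone 7.31% of these genes correlated above 0.7, 0.829% above 0.9 and 0.588% below -0.9. ME1 was matched most closely by ECI1 and PRAP1 (0.99 each), HRAS (0.98) and NME4 (0.97), with 0.90, 0.95, 0.92 and 0.84 in the 7 birds without Se-yeast birds 4 and 5.

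**Figure D4:**
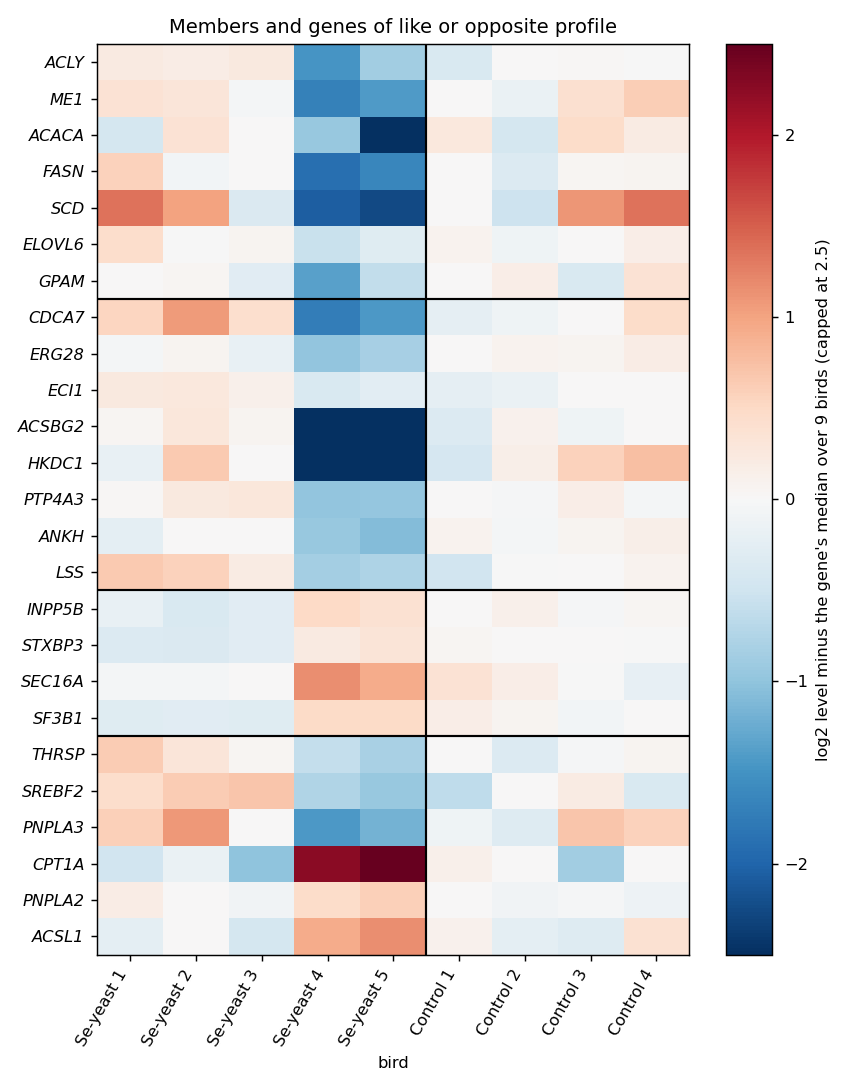
Rows are genes and columns are birds, Se-yeast left of Control, and colour gives the log2 level minus the median of the gene over 9 birds, capped at both ends of the scale; the blocks from top to bottom are the 7 enzymes that varied together, the 8 genes closest to the profile, the 4 most opposed genes, and genes of lipid metabolism named in the text. Se-yeast birds 4 and 5 are blue in the first and second blocks, and red in the third and in CPT1A, PNPLA2 and ACSL1.

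Marker genes of other cells found in liver were set beside these values. Summed signals of 10 hepatocyte markers were 462922 to 711411 in Se-yeast and 383377 to 458048 in Control birds, with 9 of 10 markers above 0. Macrophage markers (8 of 9 above 0) summed to 77682 to 95408 and 60134 to 80964, and lymphocyte markers (6 of 8) to 5518 to 8804 and 4391 to 8225, Se-yeast first in each pair. Among the macrophage markers CSF1R alone did not overlap, at 3581 to 4719 in Se-yeast and 3017 to 3402 in Control birds. All Se-yeast birds lay above all Control birds in 0.889% of tested probe sets. Stellate and connective tissue markers summed to 33966 to 37286 in Se-yeast and 31391 to 34729 in Control birds (6 of 7 above 0), bile duct markers to 4972 to 6087 and 2835 to 5821 (2 of 2), and red blood cell markers to 17329 to 47869 and 20331 to 70222 (0 of 5). Adipocyte markers, some of which also stand in the storage group above, were higher on average in Se-yeast birds for 6 of 6, at sums of 5834 to 9342 in Se-yeast and 4911 to 6437 in Control birds, with birds 4 and 5 at 6683 and 9342. Most of these sums came from CIDEC, PNPLA2 and LPL, with mean signals of 3102, 2422 and 1017 in Se-yeast birds. The defining adipocyte gene ADIPOQ was dim, at 106.1 to 243.8 in Se-yeast and 107.4 to 233.8 in Control birds, with a log2 fold change of 0.01. No marker passed the test, no marker was listed at 0, and the part of these cell types in the values of PPARG and of the enzymes was not tested.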

How the data were processed

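RNA from 9 chicken livers was measured on 1-colour Affymetrix arrays. The deposited intensity values are probe set signals on a linear scale that the authors made with MAS5, per the submitters' processing notes; on every array the mean between the 2nd and 98th percentiles was 499.9. No columns were left out. The 96 array controls were not tested. Of the other probe sets 27168 had 1 symbol, 177 several and 11094 none here. Log2(signal + 16) was taken, which pulls fold changes of dim probe sets towards 0. Probe sets with a mean at or above the 40th percentile (6.33) were fitted in limma 3.58.1 under R 4.3.3 (lmFit, eBayes with trend), Se-yeast minus Control, two-sided, with Benjamini-Hochberg adjustment over all 23063 and a threshold of 0.05. A gene is represented by its brightest tested probe set. Arrays have no read depth, and their number limits the precision.

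The genes, lists, naming rules and tests were chosen with earlier results of these data known. From each list the 4 genes with the smallest p were open to naming, beside the 8 closest to and 4 farthest from the mean profile and the 4 closest to ME1. Correlations used deviations from diet means and exact permutation within diets. In 3 runs on simulated data of all 23063 probe sets, 42.3% of 300 changes of 1 and 88.7% of 300 changes of 2 on the log2 scale were found. A mean of 6.33 unchanged probe sets per run were called as well. The changed probe sets were picked at random, with the same normal spread in both diets. The median within-diet SD was 0.778 for the genes described here and 0.337 over all tested probe sets, so these shares may not hold for them. Alternatives were another pseudocount, filter, scaling, variance model, a replicate block, a W-chromosome covariate, probe set means and leaving out birds. The platform names no genome build, so no coordinates are given, and no sequences were used here.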

Additional observations from a re-analysis of the deposited data

Results flagged for a closer look

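In 18 groups of 4 or 5 birds (9 genes in 2 diets) the lowest or highest bird was compared with the rest of its group. FASN in Control birds had its lowest bird, Control 2, at 15.10 on the log2 scale, a gap of 0.860 of the group's whole range. ACLY in Control birds had its lowest bird, Control 1, at 13.71, with a gap of 0.916 of the range. Chance alone marks about 5% of such groups. Both groups were narrow (SDs of 0.187 and 0.194). In Se-yeast birds no gene was marked in this way. The rule uses the gap beside 1 bird, so it cannot mark 2 low birds that lie close together. Se-yeast birds 4 and 5 lay so in FASN, at 13.54 and 13.80 on the log2 scale.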

How the results depend on the processing

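None of the 9 genes passed the limma test under any alternative (lowest adjusted p 0.668). The median fold change of the genes, -0.50, lay between -0.62 and -0.47 under the settings that left out no bird, the replicate block aside. The value of -0.62 came with the W-chromosome level as a covariate, which comes close to leaving out Se-yeast bird 1 (-0.59). The median lay between -0.60 and -0.24 when 1 bird was left out, and was 0.00 without Se-yeast birds 4 and 5. With the replicate block it was -0.37, the same as without Se-yeast bird 5, since that bird is alone in its block and adds nothing to the estimate. With 1 bird left out, ACLY ran from -0.40 to 0.03 and ELOVL6 from -0.23 to 0.01, both above 0 only when Se-yeast bird 4 was absent, and DGAT2 from -0.23 to 0.56, below 0 only when Control bird 1 was absent. With Se-yeast birds 4 and 5 both absent, the sign on the brightest probe set also turned for FASN (0.23), ACLY (0.31), SCD (0.18), ELOVL6 (0.13) and DGAT2 (-0.13). SREBF1, tested only without a filter, stood at -0.70 on its brightest probe set. The median correlation of gene pairs, 0.63, was 0.72 by Spearman, 0.03 without Se-yeast birds 4 and 5, and 0.56 to 0.64 when 1 bird was left out. The count of probe sets past the threshold, 6, was 3 without a variance trend and 3 with the replicate block, and 3 to 7 when 1 bird was left out. Control replicate 3 and Se-yeast replicates 1, 3 and 4 each gave 3 when left out. Replicate numbers did not pair the birds: deviations of same-numbered birds correlated at -0.11, 0.04, 0.02 and 0.00, and of birds of different numbers at a median of -0.02. A filter at the 60th percentile removed DGAT2 and PPARG. The cause of these changes was not tested.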
